A study of Homo sapiens with 4 samples.

Results

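The genes described here are 341 protein-coding genes of the long arm of human chromosome 10, and most of them gave less RNA in drug-resistant KP4 cells, called E5, than in control KP4 cells. They were chosen by place and level: a gene start at or beyond 43.6 Mb on chromosome 10 in build GRCh38, a protein-coding category and a mean of at least 1 CPM (the count scaled to a common total of gene reads) over 12 libraries. The CPM values given below for single libraries also carry TMM scaling, which evens out differences in composition between libraries. The rule left out 14 genes by name, among them interferon-induced, cell cycle and drug-induced genes. Of 555 protein-coding genes that start in this stretch, 200 lay under 1 CPM, and the 341 remaining genes are part of 11828 protein-coding genes of that level in the genome. All 341 passed the filter on low counts. The stretch itself was picked because it was low in E5, so every E5 against control value of these genes is a description and carries no test.

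KP4 is an established line of pancreatic ductal adenocarcinoma. Its control and E5 cells were grown in DMEM with 10% FBS and each given DMSO (vehicle) or FOLFIRINOX for 96 h. In the FOLFIRINOX groups the mix held SN-38 at 25 nM (the topoisomerase I inhibitor formed from irinotecan), oxaliplatin at 5 µM (a DNA crosslinker) and a compound the labels call 5-F at 10 µM. The labels name the 4 groups only as control or E5 and vehicle or FOLFIRINOX. The design text speaks of 5 cycles of the treatment, but which past drug the E5 vehicle cells met, and whether E5 is a clone or a population, the labels do not tell. Each GEO sample has 3 numbered columns, taken as n = 3 libraries. Whether these are separate cultures is not given, so the spread between them may be technical.

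A cell's RNA output from a gene depends in part on how many copies of the gene it carries. Loss of a chromosome arm usually lowers many neighbouring genes by a modest and similar amount, whereas control of a single gene by a transcription factor moves that gene and spares its neighbours. Loss of 10q is a known event in several cancers. DNA copies were not measured in this series, so a lower copy number and lower output per copy cannot be told apart here. In bulk RNA, fewer cells of a type and less RNA per cell cannot be told apart either.

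Neighbours did not all share the shift, and a clear case was 3 genes near 63 Mb, of which ADO was added after its values were seen. They are not all adjacent, since NRBF2 (63.13 Mb), not described here, starts between EGR2 and JMJD1C. EGR2, an immediate early zinc finger transcription factor, and ADO, which oxidises cysteamine, were higher in E5, while JMJD1C, a member of the jumonji histone demethylase family, was lower. The 250 bases upstream of a listed start site are shown for each gene, from RefSeq (GRCh38.p14), in the direction of transcription. Capitals mark a CArG box, the motif of serum response factor, in EGR2 and a CCAAT motif (the letters CCAAT or ATTGG) in ADO. EGR2 had 3 listed promoters, and only those with a CArG box were considered, so its sequence was chosen for that motif. The sequences of ADO (1 listed promoter) and JMJD1C (3 listed) were not chosen by motif.
EGR2 (chr10:62816367-62816616, minus strand): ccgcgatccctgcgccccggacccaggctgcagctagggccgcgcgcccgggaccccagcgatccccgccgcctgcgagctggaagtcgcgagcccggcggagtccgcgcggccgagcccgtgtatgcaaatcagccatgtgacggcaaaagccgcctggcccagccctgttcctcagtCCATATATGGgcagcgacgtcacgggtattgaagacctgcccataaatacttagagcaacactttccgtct
ADO (chr10:62804470-62804719, plus strand): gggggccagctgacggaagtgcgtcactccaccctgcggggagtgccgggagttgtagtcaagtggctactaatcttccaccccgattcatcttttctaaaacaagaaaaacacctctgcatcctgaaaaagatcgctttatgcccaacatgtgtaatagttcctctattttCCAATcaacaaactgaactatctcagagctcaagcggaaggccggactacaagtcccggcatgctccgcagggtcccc
JMJD1C (chr10:63521891-63522140, minus strand): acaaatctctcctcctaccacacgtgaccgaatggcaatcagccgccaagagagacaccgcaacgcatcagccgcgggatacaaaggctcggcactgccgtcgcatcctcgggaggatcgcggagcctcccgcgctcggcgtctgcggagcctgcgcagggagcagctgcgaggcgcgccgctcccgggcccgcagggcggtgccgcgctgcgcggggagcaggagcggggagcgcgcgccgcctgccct

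Windows of 250 bases before to 50 bases after the start were listed for 297 of the 341 genes. A CArG box stood in 5 of them (1.68%), namely ANXA7, EGR2, EIF5AL1, NPM3 and PPIF, and in 1.6% of 27305 genes of the genome. CCAAT on either strand was in 40.1% of the 297 and 39.7% of all, and TATAAA on either strand in 8.75% and 14%. A match describes letters only and shows no binding.

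EGR2 was at 0.111, 0.191 and 0.515 CPM in control vehicle libraries and at 14.1, 12.5 and 10.6 CPM in E5 vehicle libraries. With FOLFIRINOX it was at 0.772, 0.744 and 1.11 CPM in control and 14.7, 15.4 and 15.3 CPM in E5 cells. Every E5 library stood above every control library, with log2 differences between E5 and control of 5.34 ± 0.25 (SE) under vehicle and 4.07 ± 0.19 under FOLFIRINOX. EGR2 passed the cutoff of 1 CPM through its E5 libraries, and its control values rest on few reads. ADO was at 65.4, 63.7 and 67.6 CPM in control vehicle and 104, 105 and 112 in E5 vehicle, and at 109, 108 and 109 against 152, 152 and 152 CPM under FOLFIRINOX. Its groups did not overlap under either treatment. JMJD1C gave 268, 279 and 222 CPM in control vehicle libraries and 68.2, 94.8 and 87.1 in E5 vehicle. Under FOLFIRINOX it gave 293, 182 and 291 CPM in control and 73.0, 106 and 115 in E5 cells, so the highest E5 library stayed under the lowest control library in both. The second control FOLFIRINOX library was the low one of its group here, as it was for SMC3.

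Across the whole group, the median log2 difference between E5 and control was -0.45 under vehicle, a ratio of 0.733, and -0.37 under FOLFIRINOX, a ratio of 0.776. The interquartile ranges were -0.64 to -0.19 and -0.61 to -0.07. Among 11473 other protein-coding genes of the same level, the medians were 0.00 and 0.02. The 10q genes were lower in E5 under both treatments in 252 of 341 cases (73.9%), higher under both in 34 (9.97%) and of opposite sign in 55, while 34.5% of the other genes were lower under both. The pair of comparisons shares no library, and across the 341 genes they had a Pearson r of 0.78 and a Spearman rho of 0.61, a description in which all genes share the same libraries and the same scaling.

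Most 10q genes were lower by less than a factor of 2. Under vehicle, 35 genes had a log2 difference of -1 or lower, 117 lay between -1 and -0.5 and 138 between -0.5 and 0. A further 26 lay between 0 and 0.5 and 25 at 0.5 or more, so 34.3% were in the class from -1 to -0.5, which held 7.59% of other genes. All E5 libraries stood below all control libraries for 255 genes (74.8%) under vehicle and 215 (63.0%) under FOLFIRINOX, where 27.8% and 28.7% of all 15636 tested genes did so. The reverse held for 33 genes (9.68%) and 38 genes (11.1%), against 27.0% and 28.4% of all tested genes. Since these comparisons picked the stretch, nothing further is read from those counts.

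Relative to the mean of control vehicle, the median log2 ratio of the 341 genes was -0.45, -0.42 and -0.43 in E5 vehicle libraries and -0.42, -0.44 and -0.41 in E5 FOLFIRINOX libraries. Control FOLFIRINOX libraries gave -0.07, -0.11 and -0.03, where the other protein-coding genes also had a mean of -0.07. The 341 genes took 3.34 ± 0.032% (SD, n = 3) of gene reads in control vehicle, 2.5 ± 0.046% in E5 vehicle, 3.44 ± 0.091% in control FOLFIRINOX and 2.58 ± 0.0058% in E5 FOLFIRINOX. No E5 library reached the share of any control library. The plot of library medians shows the 10q genes with chromosome 10 before 43.6 Mb, whose 116 genes had mean library medians of -0.17 ± 0.047 in E5 vehicle and -0.07 ± 0.023 in E5 FOLFIRINOX.

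**Figure D1:**
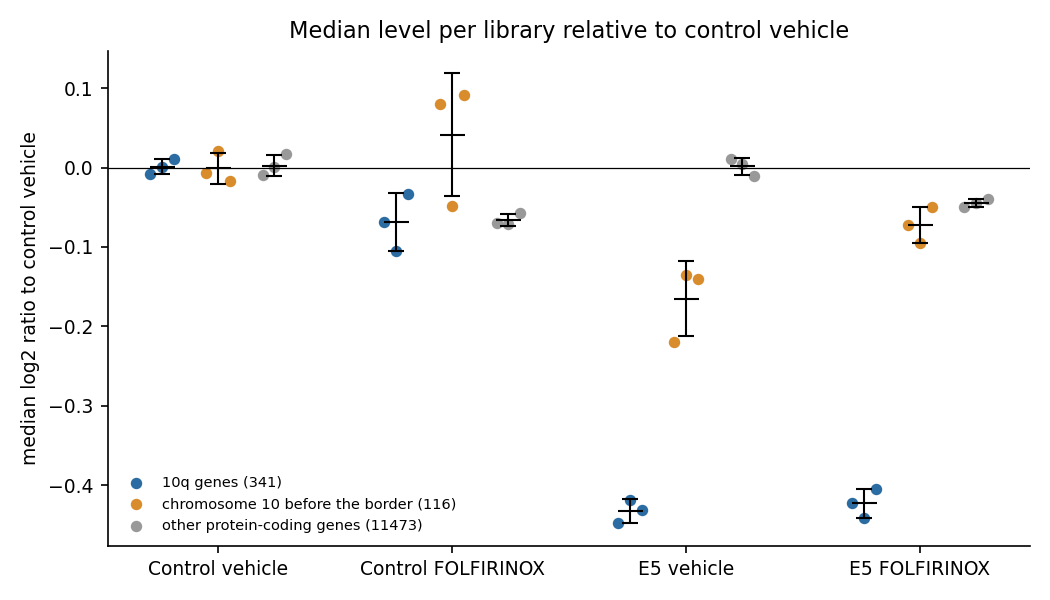
Median log2 ratio to the control vehicle mean (y axis) for each of 12 libraries in 4 groups (x axis), for the 341 10q genes, 116 chromosome 10 genes before the border and 11473 other protein-coding genes. Points are libraries and bars the mean ± SD of 3 libraries; the 10q genes of all 6 E5 libraries lie between -0.45 and -0.41.

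No other whole chromosome had so low a median. Over 22 other chromosomes, the medians ran from -0.28 (chromosome 18) to 0.16 (chromosome 7) under vehicle and from -0.22 (chromosome 18) to 0.16 (chromosome 7) under FOLFIRINOX. Chromosome 16 from 46 Mb on was close to 10q, with 246 genes and medians of -0.35 and -0.37. Under vehicle 85.0% of its genes were below 0, the same share as on 10q. It was set beside 10q because earlier results had shown it to be low, so the likeness is a description without a test.

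**Figure D2:**
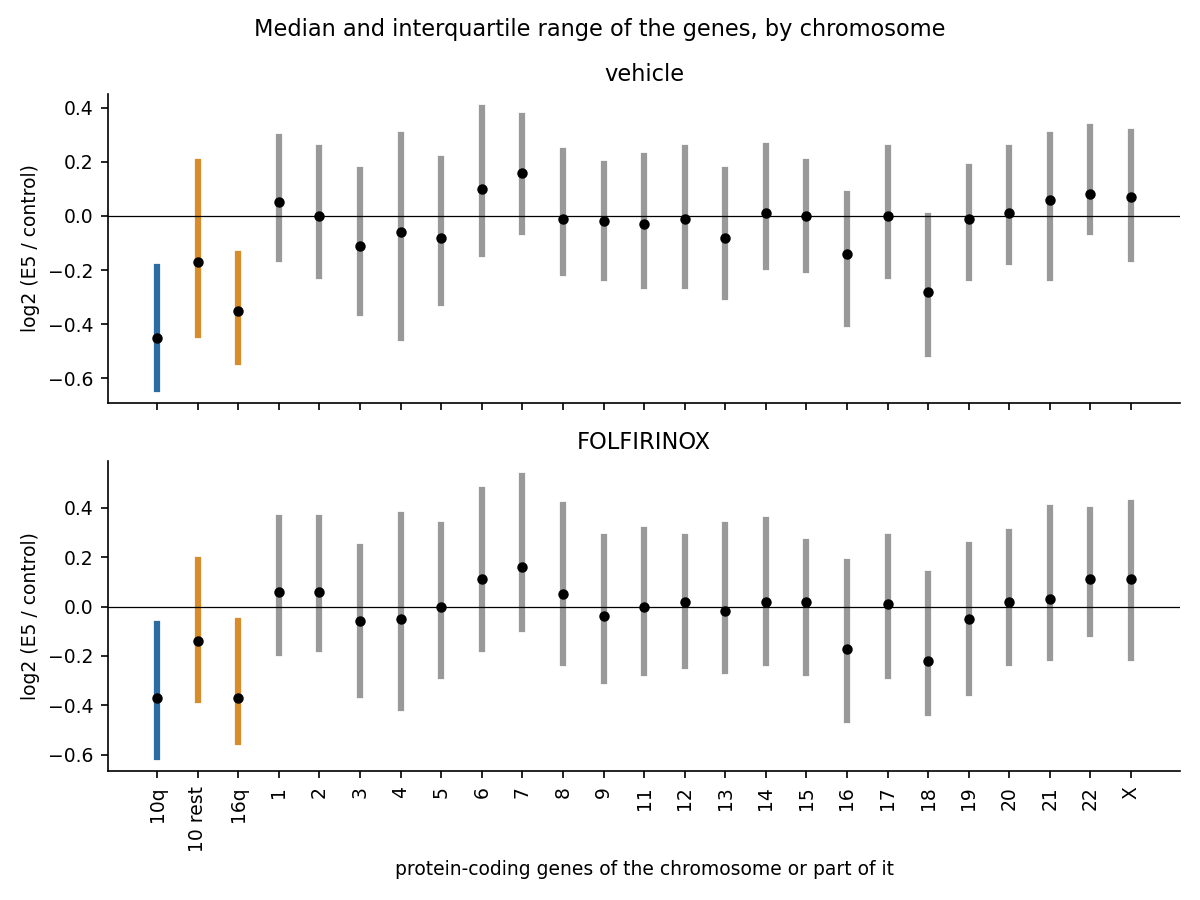
Log2 difference between E5 and control (y axis) of protein-coding genes by chromosome or part of it (x axis), under vehicle (top) and FOLFIRINOX (bottom). Points are medians and bars interquartile ranges over genes; the 10q genes have the lowest median under vehicle, and under FOLFIRINOX they share -0.37 with chromosome 16 from 46 Mb on.

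Along the arm, the E5 level was lower everywhere that was averaged over 21 genes. All 321 running medians of 21 neighbouring genes were below 0 under either treatment. Under vehicle they ranged from -0.69, in the window from ANK3 (60.03 Mb) to STOX1 (68.83 Mb), to -0.22, from VSIR (71.75 Mb) to SEC24C (73.74 Mb). Under FOLFIRINOX the lowest was -0.66, from ATE1 (121.74 Mb) to EDRF1 (125.72 Mb), and the highest -0.02, from BCCIP (125.82 Mb) to ADAM8 (133.26 Mb). The window nearest the end of the arm, from DOCK1 (126.91 Mb) to SPRN (133.42 Mb), was at -0.32 under drug. In windows of 11 genes, 326 of 331 medians were below 0 under FOLFIRINOX, and in bins of 5 Mb the 3 genes between 105 and 110 Mb gave medians of 0.35 and 0.93.

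In bins of 10 Mb, the vehicle medians were -0.31 from 40 to 50 Mb (16 genes), -0.46 from 50 to 60 Mb (16), -0.62 from 60 to 70 Mb (30) and -0.35 from 70 to 80 Mb (54). Further out they were -0.40 from 80 to 90 Mb (22), -0.43 from 90 to 100 Mb (54) and -0.37 from 100 to 110 Mb (57). The last bins gave -0.57 from 110 to 120 Mb (41), -0.52 from 120 to 130 Mb (34) and -0.39 beyond 130 Mb (17). All these bins hold only genes inside the border of the rule. Between 40 and 50 Mb, 7 further genes lie before that border. Their medians were -0.67 under vehicle and -0.65 under FOLFIRINOX, with 7 and 6 of 7 below 0. Their vehicle median was thus lower than that of any bin inside the border. Among the genes kept by the rule, neighbours lower in both treatments ran on for up to 20 genes in a row, from COX15 (99.71 Mb) to POLL (101.58 Mb). The 34 genes higher in both were scattered in 29 places, 25 of them a single gene. Their longest row was 3 genes, from VSIR to SPOCK2 (72.06 Mb). Such rows depend on the genes left out by name. Between COX15 and POLL start ABCC2 (99.78 Mb, 1.43 under vehicle and 0.43 under FOLFIRINOX) and SCD (100.35 Mb, 0.33 and 0.61). Both were left out by name and were higher in both treatments, so that row is unbroken only without them. From 89.28 to 89.41 Mb, IFIT2 (2.45 and 2.0), IFIT3 (2.94 and 1.4), IFIT1 (2.04 and 1.24) and IFIT5 (0.76 and 0.31) were higher in both. PSAP (71.82 Mb, -0.2 and 0.08) starts between VSIR and SPOCK2.

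**Figure D3:**
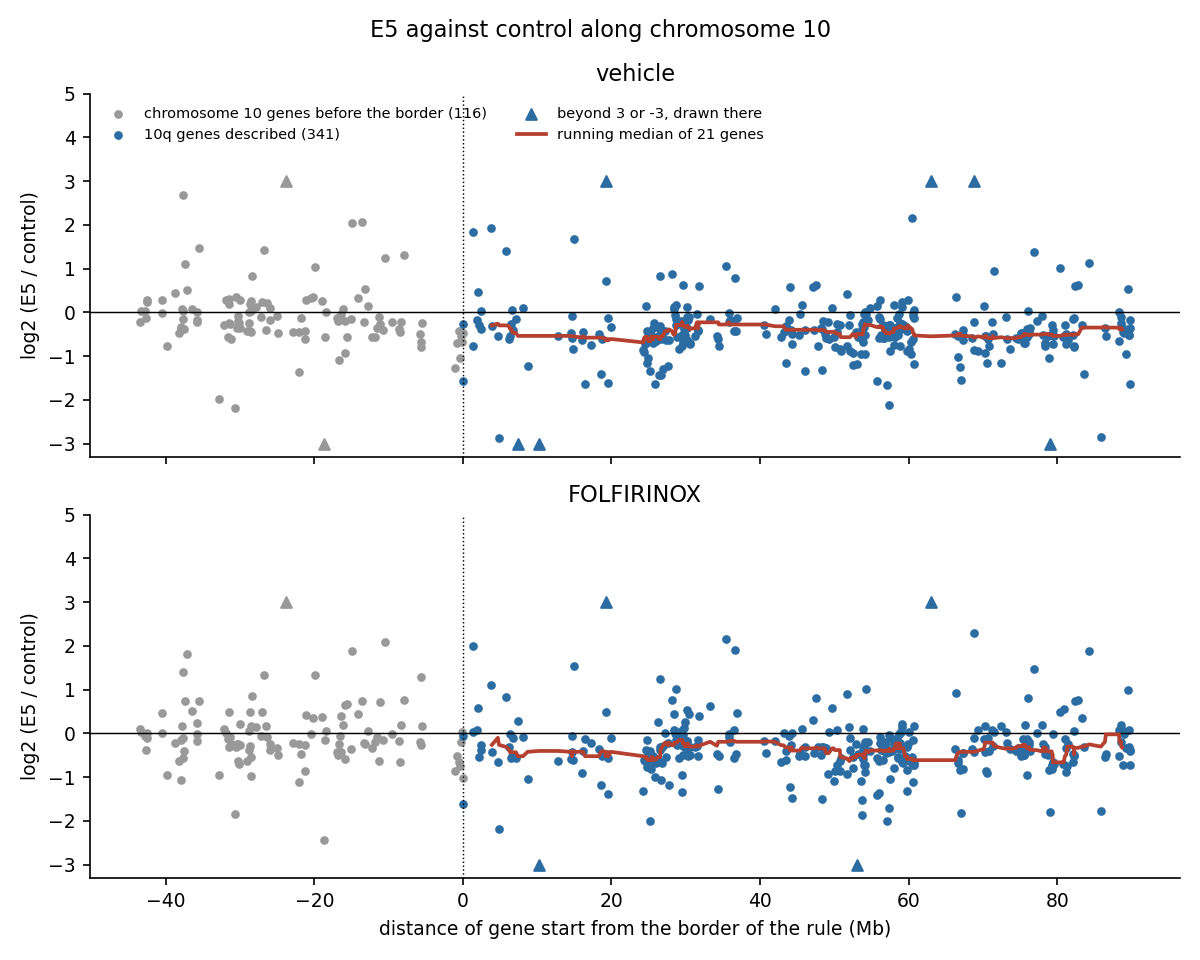
Log2 difference between E5 and control (y axis) of each gene against the distance of its start from the border of the rule (x axis, Mb), under vehicle (top) and FOLFIRINOX (bottom), with 341 10q genes, 116 genes before the border and the running median of 21 genes. Triangles are genes beyond 3 on the axis; the running median stays below 0 throughout.

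The border of the rule was not a step in the data. The 5 genes just before it were CSGALNACT2 (-0.42 under vehicle, -0.65 under FOLFIRINOX), RASGEF1A (-1.04, -0.74), HNRNPF (-0.54, -0.20), ZNF487 (-0.67, 0.04) and ZNF239 (-0.48, -1.01). The 5 just inside were ZNF485 (-1.56, -1.61), ZNF32 (-0.26, -0.06), RASSF4 (-0.77, 0.04), DEPP1 (1.83, 1.99) and MARCHF8 (-0.18, 0.07). All 5 outside genes were lower under vehicle, as were 4 of 5 inside. Before the border, the 7 genes from 40 Mb on had a vehicle median of -0.67. The 20 genes from 30 to 40 Mb had -0.25, and the 25 genes from 0 to 10 Mb had 0.03. The split of the 341 genes with the largest difference of medians fell after ASAH2B (50.74 Mb) and before PRKG1 (50.99 Mb) under vehicle, with -0.28 before and -0.46 after. Under FOLFIRINOX it fell after CSTF2T (51.70 Mb) and before DKK1 (52.31 Mb), with -0.18 and -0.38. The search required at least 20 genes on each side. The first side held 20 genes under vehicle and 22 under FOLFIRINOX, so the vehicle split lies at the edge that the search allowed. These splits do not locate a breakpoint.

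Genes on both sides of the level cutoff varied widely. Those just over 1 CPM were GRID1 (0.07 and -0.17), SEMA4G (-2.11 and -1.70) and DMBT1 (-4.26 and -1.80), and those just under were PLEKHS1 (5.00 and 5.69), DNAJC12 (-0.49 and -1.65) and ZNF22 (-2.53 and -4.94). In 4 equal groups by mean CPM, from low to high, the vehicle medians were -0.43, -0.42, -0.49 and -0.46, while the share below 0 was 72.1% in the lowest group and 92.9% in the highest. The vehicle difference had a Pearson r across genes of -0.01 with mean log2 CPM, -0.03 with log10 gene length and 0.01 with the GC content of 297 promoters. Under FOLFIRINOX the r with log10 gene length was 0.13 (Spearman 0.19). Low genes thus had a wide spread around the same centre.

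Lowest of the genes of at least 5 CPM, by the mean of both comparisons, was STOX1, a winged helix DNA-binding protein. It gave 11.2, 12.5 and 11.6 CPM in control vehicle against 4.69, 4.71 and 4.68 in E5 vehicle, and 13.6, 9.57 and 10.9 against 3.93, 2.42 and 1.67 under FOLFIRINOX. All 6 E5 libraries were under all 6 control libraries. DKK1, a secreted inhibitor of Wnt signalling, gave 411, 396 and 421 CPM in control vehicle and 168, 181 and 176 in E5 vehicle. Under FOLFIRINOX it gave 331, 311 and 315 CPM in control and 151, 147 and 166 in E5, so each E5 group lay far below its control group. TSPAN15, a tetraspanin that partners the protease ADAM10, was at 25.6, 25.5 and 24.8 CPM in control vehicle and 7.63, 8.11 and 8.51 in E5 vehicle. The other genes of the lowest 8 were JMJD1C, CNNM1 (-1.58 and -1.40), RTKN2 (-1.41 and -1.17), LRRC20 (-1.43 and -1.06) and TAF5, a subunit of the transcription factor TFIID (-0.88 and -1.32). All 8 were well below the median of the arm.

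Highest in E5 at that level, after EGR2, was ACSL5, which activates long-chain fatty acids. It gave 0.556, 0.955 and 0.515 CPM in control vehicle and 22.1, 21.6 and 22.1 in E5 vehicle, and 1.54, 1.98 and 2.68 against 11, 11.3 and 9.72 under FOLFIRINOX. The E5 groups stood apart under either treatment, with log2 differences of 4.92 ± 0.18 and 2.30 ± 0.16. EGR2 and ACSL5 reached a mean of 5 CPM only through their E5 libraries. Their rank is therefore not independent of the cutoff, and their control values rest on few reads. ZMIZ1, a coactivator of transcription, gave 84.4, 85.1 and 87.6 CPM in control vehicle and 193, 178 and 168 in E5 vehicle, and 37.2, 43.6 and 39.0 against 178, 190 and 168 under FOLFIRINOX. BICC1, an RNA-binding protein, was higher by 1.67 and 1.54, ZNF488 by 1.93 and 1.11, the phosphatase PTPRE by 1.12 and 1.89, MAT1A, which makes S-adenosylmethionine, by 0.79 and 1.91 and ERCC6, a factor of transcription-coupled repair, by 1.40 and 0.84. So a minority of 10q genes were several times higher in E5 from within a stretch that was mostly lower. Under 5 CPM, and picked here after their values were seen, PCDH15 was at -4.91 and -3.21 and SORCS1 at 5.34 and 4.20.

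Among signalling genes, all 15 had vehicle values below 0 and 11 of 15 under FOLFIRINOX, with medians of -0.49 and -0.40. CHUK, the alpha kinase of the IKK complex that turns on NF-kappaB, was at -0.59 and -0.61. SHOC2, a scaffold of RAS signalling, was at -0.53 and -0.45, and PPP3CB, a catalytic subunit of calcineurin, at -0.31 and 0.27. PPP3CB was thus below control with vehicle and not with drug, and the test of that difference is given with the drug response.

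Genes of DNA repair, replication and chromosome segregation had the lowest median of the 8 functional lists under vehicle, -0.60, with 17 of 19 below 0 and all E5 libraries under all control libraries for 17, where 74.8% of the 341 genes and 27.8% of all tested genes had such a gap. Under FOLFIRINOX the median was -0.51, with 18 of 19 below 0. BUB3, a spindle checkpoint protein, gave 404, 391 and 392 CPM in control vehicle and 262, 283 and 269 in E5 vehicle. CEP55, which acts in the last step of cell division, was at -0.56 and -1.08, and MCMBP, which binds the replicative helicase, at -0.45 and -0.26. NCOA4, a coactivator and ferritin receptor, was near 0 under vehicle (0.02). The extremes under vehicle were MGMT, which removes alkyl groups from guanine, and ERCC6. MGMT gave 7.12, 5.63 and 6.92 CPM in control vehicle against 1.34, 0.754 and 0.766 CPM in E5 vehicle. With drug it gave 2.06, 2.73 and 2.40 CPM in control and 0.724, 0.641 and 0.772 CPM in E5 cells, and all E5 libraries were lower under both treatments.

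RNA processing and translation was the list with the most even shift, since 16 of 16 genes were below 0 under both treatments, with medians of -0.54 and -0.52 and a vehicle range of -0.83 (NOC3L) to -0.21 (CPEB3). EIF3A, the largest subunit of initiation factor eIF3, gave 1020, 1070 and 958 CPM in control vehicle and 678, 754 and 752 in E5 vehicle. DDX21, a nucleolar RNA helicase, was at -0.52 and -0.54, RPS24, a protein of the small ribosomal subunit, at -0.78 and -0.51 and HNRNPH3, a splicing regulator, at -0.43 and -0.16. Most of these values lie near the median of the arm.

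Mitochondrial genes had medians of -0.37 and -0.39, with 16 of 18 below 0 under either treatment. TFAM, which packs mitochondrial DNA and helps start its transcription, gave 317, 331 and 291 CPM in control vehicle and 150, 194 and 177 in E5 vehicle. PRDX3, a mitochondrial peroxidase, gave 509, 484 and 494 against 285, 315 and 306 CPM, and no E5 library of either gene reached a control library. GHITM, an inner membrane protein, was at -0.28 and -0.18 and MRPS16, of the mitochondrial ribosome, at -0.22 and -0.29. Metabolic enzymes had medians of -0.32 and -0.34, with 15 and 14 of 19 below 0. Examples were PPA1, which splits pyrophosphate (-0.62 and -0.34), OAT, ornithine aminotransferase (-0.56 and -0.70), GLUD1, glutamate dehydrogenase (-0.32 and -0.39) and IDE, insulin-degrading enzyme (-0.58 and -0.34).

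Vesicle traffic genes had medians of -0.31 and -0.34, with 14 and 13 of 15 below 0. SAR1A, the GTPase that starts COPII coats, was at -0.31 and -0.38, SEC23IP at -0.36 and -0.41 and VPS26A of the retromer at -0.71 and -0.51, while GBF1, an activator of ARF GTPases, stood at -0.03 and -0.01. Transcription and chromatin genes had medians of -0.49 and -0.35, with 12 and 11 of 15 below 0, and ran from JMJD1C to EGR2. PPRC1, a coactivator of respiratory genes, was at -0.45 and -0.55 and CTBP2, a corepressor, at -0.63 and -0.25.

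Adhesion, cytoskeleton and surface proteolysis was the list nearest to 0, with medians of -0.18 and 0.05 and 10 and 7 of 15 genes below 0. Scaled by total counts alone, its FOLFIRINOX median was -0.02. VCL, the focal adhesion protein vinculin, gave 730, 736 and 747 CPM in control vehicle and 703, 687 and 678 in E5 vehicle, then 318, 324 and 324 against 467, 460 and 395 under FOLFIRINOX. Its E5 libraries were thus slightly below control without drug and above control with drug. MYOF, a membrane repair protein, was at 0.09 and 0.59, PLAU, the urokinase protease, at -0.18 and -0.51 and ABLIM1, an actin-binding protein, at -0.78 and -0.39.

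By the authors' FPKM, which is scaled to gene length and allows levels to be set side by side between genes, the 6 most abundant of the 341 were RPS24, ATP5MD, PGAM1, VDAC2, HNRNPH3 and PPA1. RPS24 had a mean FPKM of 2300 in control and 1350 in E5 cells with vehicle, and of 2630 and 1740 with drug. ATP5MD, a small subunit of ATP synthase, was at -0.40 and -0.32 on the log2 scale of counts, PGAM1, a glycolytic enzyme, at -0.23 and 0.10, and VDAC2, a pore of the outer mitochondrial membrane, at -0.40 and -0.52. Several of these genes have processed copies elsewhere in the genome, and reads that matched several places were outside the counts, so their values are uncertain. Of these 6, all were lower in E5 under vehicle and PGAM1 was slightly higher under drug.

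Subunits of complexes give a comparison in which some genes lie on 10q and their partners elsewhere. For 12 complexes, 15 subunits are among the 341 genes and 87 partners lie on other chromosomes, all 87 of them tested. The 10q subunits had a median log2 difference of -0.47 under vehicle and -0.37 under FOLFIRINOX, and the partners had -0.04 and 0.03. Every 10q subunit (15 of 15) stood below the median of its partners under vehicle, and 14 of 15 did under FOLFIRINOX, the exception being PPP3CB. As the 10q subunits come from a stretch picked for being low, that count is a description. The partners were not picked that way and were tested with edgeR's quasi-likelihood test and Benjamini-Hochberg adjustment over all genes. Of the 87, 13 were higher in E5 under vehicle, 18 lower and 56 not called, where 22.1% of all tested genes were called higher and 22.2% lower. Under FOLFIRINOX 21 were higher, 21 lower and 45 not called, beside 26.7% and 27.6% of all genes. With total counts in place of TMM scaling these last calls became 14 higher and 32 lower, and without the third control FOLFIRINOX library 13 were lower.

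Named complexes show how the 10q subunit stood among its partners. In IKK, CHUK gave 137, 136 and 125 CPM in control vehicle and 82.0, 94.1 and 87.6 in E5 vehicle, while the partner kinase IKBKB was higher in E5, at 34.0, 31.6 and 33.8 CPM against 24.5, 26.9 and 27.3 (log2 difference 0.33 ± 0.085, edgeR adjusted p = 0.0049). In the retromer, VPS26A was at -0.71, VPS26B at -0.16 (edgeR adjusted p = 0.07) and VPS29 at -0.13 (adjusted p = 0.12), whereas VPS35, which lies on chromosome 16, was at -0.52 (adjusted p = 1.3e-06). In cohesin, the ring that holds sister chromatids together, partners were called lower under vehicle but not under FOLFIRINOX. Its 10q subunits were SMC3 at -1.25 and -0.83 and WAPL, which opens the ring, at -0.57 and -0.66. Its 7 partners had medians of -0.52 and 0.10, with 4 called lower under vehicle and 0 under FOLFIRINOX, where 1 was called higher. In the RNA exosome, which degrades and trims RNA, EXOSC1 of 10q was at -0.50 and -0.58, and of its 10 partners 4 were called lower under vehicle and 5 under FOLFIRINOX, with medians of -0.19 and -0.18 and 0 called higher. Of those called lower under vehicle, EXOSC6 (-0.49, edgeR adjusted p = 0.014) lies in the same stretch of chromosome 16. The others, EXOSC2, EXOSC8 and EXOSC9, do not lie on chromosome 16. In eIF3, EIF3A was at -0.48 and its 12 partners between -0.19 and 0.19 under vehicle. TIMM23 has a near-identical neighbour copy, so its value of -0.38 is uncertain. NDUFB8 of respiratory complex I was at 13.3, 12.9 and 14.4 CPM in control vehicle, but its mean FPKM there was 147, so the deposited tables count this gene differently.

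**Figure D4:**
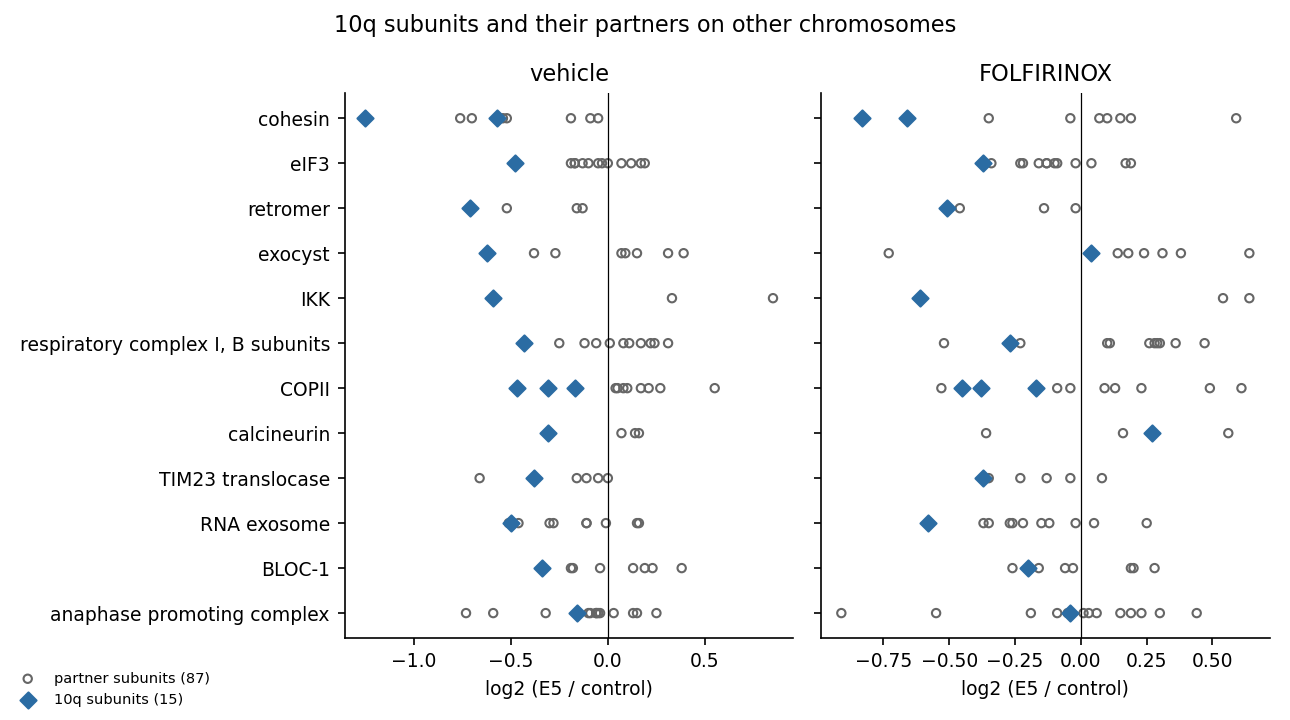
Log2 difference between E5 and control (x axis) for 15 subunits on 10q (diamonds) and 87 partner subunits on other chromosomes (circles) in 12 complexes (y axis), under vehicle (left) and FOLFIRINOX (right). The diamonds lie left of most circles, with PPP3CB of calcineurin to the right under FOLFIRINOX at 0.27.

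The response to FOLFIRINOX was not used to choose the stretch, although several of the 14 genes left out by name are drug-responsive, which affects these counts. In control cells, 107 of the 341 genes rose (31.4%), 138 fell (40.5%) and 96 were not called, by edgeR's quasi-likelihood test with Benjamini-Hochberg adjustment. Of all tested genes 32.6% rose and 32.7% fell, and of the 11828 protein-coding genes of at least 1 CPM 30.8% rose and 39.1% fell. In E5 cells 98 rose (28.7%), 101 fell (29.6%) and 142 were not called, beside 25.0% and 27.3% of all genes and 25.2% and 33.1% of those protein-coding genes. These shares lay near the background. Scaled by total counts alone, the calls were 133 higher and 108 lower in control cells and 128 and 84 in E5 cells, as that scaling moved the median of all genes in control cells from 0.00 to 0.14. On log2(FPKM + 1) with limma, 133 were higher and 83 lower in control cells.

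At a mean of 5 CPM or more before TMM scaling, the largest rises in control cells were in COL17A1, CFAP58, PAPSS2, SFR1, ACSL5 and EGR2. PAPSS2, which makes the sulphate donor PAPS, rose from 13.8, 12.6 and 13.8 CPM to 44.4, 45.4 and 47.6 in control cells (log2 change 1.78 ± 0.090, edgeR adjusted p = 5.1e-11). In E5 cells PAPSS2 was at 21.8, 19.2 and 18.8 with vehicle and 21.7, 18.7 and 17.9 with drug, groups that overlapped. SFR1, a factor of homologous recombination, rose from 37.3, 32.1 and 35.6 CPM to 107, 97.5 and 116 in control cells and from 22.0, 24.5 and 22.0 to 48.3, 45.3 and 56.1 in E5 cells. The rise was called in both lines (1.62 and 1.12, edgeR adjusted p = 2e-10 and 9.2e-08). CFAP58, a protein of cilia and flagella, also rose in both, by 2.21 and 1.48. ACSL5 and EGR2 reached that mean level through E5 cells, so their control responses rest on few reads. Under that level, and picked after its values were seen, SORCS1 had a larger control response (2.54 ± 1.0, edgeR adjusted p = 0.028).

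At the same level, the largest falls in control cells were in ZCCHC24, LHPP, DDIT4, GOLGA7B, ANK3 and SFXN2. ZCCHC24, a zinc finger protein, fell from 15.7, 16.8 and 17.6 CPM to 3.60, 4.91 and 3.79 in control cells and from 14.6, 14 and 14.5 to 4.03, 3.99 and 3.99 in E5 cells. DDIT4, a stress-induced inhibitor of mTORC1, fell by 1.85 in control and 1.0 in E5 cells. SFXN2, a mitochondrial carrier, fell by 1.32 and 1.33. Below that level, AIFM2 fell by 3.14 and 2.72 and KNDC1 by 2.08 and 1.62 in control and E5 cells, named here after their values were seen. PDCD4, an inhibitor of translation initiation, fell from 52.4, 56.9 and 62.1 CPM to 28.8, 27.5 and 28.5 in E5 cells (log2 change -1.02 ± 0.085, edgeR adjusted p = 5.5e-08). ACTA2, smooth muscle actin, fell by 0.97 in E5 cells. The largest rises in E5 cells at that level were in INSYN2A (2.30), CFAP58, STAMBPL1, a deubiquitinase (1.14), SFR1, DCLRE1A, a crosslink repair nuclease (0.95), and RTKN2 (0.87).

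The counts of the functional lists stand beside 32.6% of all tested genes called higher and 32.7% lower in control cells, and 25.0% and 27.3% in E5 cells. RNA processing and translation had 8 of 16 genes called higher in each line, with 6 lower in control and 3 lower in E5 cells. Adhesion, cytoskeleton and surface proteolysis had 10 of 15 called lower in control cells and 6 in E5 cells, with VCL falling by 1.20 and 0.65 and MYOF by 1.11 and 0.61. Metabolic enzymes had 11 of 19 called lower in control and 12 in E5 cells, and signalling genes 9 and 8 of 15. DNA repair, replication and chromosome segregation had 6 higher and 5 lower of 19 in control cells and 4 and 3 in E5 cells. CEP55 of that list rose by 0.73 in control cells (edgeR adjusted p = 1.5e-06) and was at 0.20 in E5 cells (adjusted p = 0.062).

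Of the genes called in both lines, 155 of 162 (95.7%) went the same way, and 95.2% of the other protein-coding genes called in both did so. The 7 of opposite direction were FRAT1, ENTPD7, ADD3, ACSL5, GRK5, CHST15 and PTPRE, named here because the count is small. The difference of the responses, tested as E5 minus control, was positive for 70 genes (20.5%), negative for 38 (11.1%) and not called for 233. Of all tested genes 13.3% were positive and 12.4% negative, and of protein-coding genes of at least 1 CPM 16.2% and 13.9%. Scaled by total counts alone, 54 were positive and 49 negative, and on log2(FPKM + 1) with limma the balance turned, with 25 positive and 52 negative. By arithmetic this difference equals the E5 against control value under FOLFIRINOX minus that under vehicle, and its median over the 341 genes was 0.09. Those are the comparisons that picked the stretch. The balance of positive and negative calls is therefore not independent of that choice and is a description.

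The largest difference between the lines among the 341 genes was in PRKG1, a cGMP-dependent kinase under 5 CPM named after its values were seen, at 3.30 ± 0.39 (edgeR adjusted p = 1.3e-05). At 5 CPM or more it was in COL17A1. This gene, a collagen of epithelial anchoring junctions, rose from 1.78, 2.34 and 3.43 CPM to 14, 13.6 and 13.1 in control cells and was at 12.5, 10.6 and 12.3 without and 9.61, 10.0 and 8.50 with drug in E5 cells. The difference of its responses was -2.67 ± 0.21 (edgeR adjusted p = 2e-07). E5 vehicle libraries thus stood just below the control libraries that had received the drug. ANK3, ankyrin G, which ties membrane proteins to the spectrin skeleton, fell from 52.3, 49.9 and 48.2 CPM to 20.8, 16.1 and 21.4 in control cells, but was already at 14.1, 16.9 and 16.4 in E5 vehicle and at 17.5, 18.6 and 17.1 with drug. Its difference was 1.53 ± 0.15 (edgeR adjusted p = 2.1e-06). PPP3CB fell in both lines, by 0.97 and 0.39, with a difference of 0.58 ± 0.094 (edgeR adjusted p = 0.00033).

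**Figure D5:**
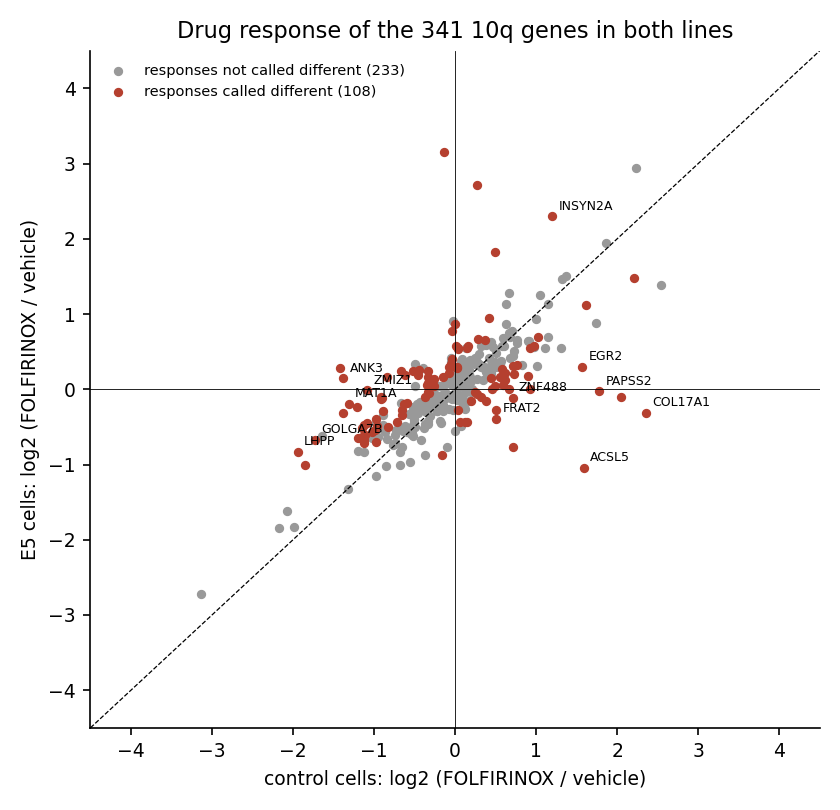
Log2 change with FOLFIRINOX in control cells (x axis) and in E5 cells (y axis) for each of the 341 10q genes; red points are the 108 genes whose responses were called different and grey points the other 233. COL17A1, PAPSS2 and ACSL5 lie far below the dashed line of equal response and INSYN2A above it.

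Gene reads per library ranged from 7359034 to 21775030. The cells carried markers of an epithelial and mesenchymal tumour line: 4 of 6 ductal epithelial markers and 4 of 4 mesenchymal markers reached a mean of 1 CPM. The mesenchymal markers went both ways. Vehicle means in control and E5 cells were 135 and 71 CPM for CDH2 and 56.6 and 38 for ZEB1. For VIM they were 2470 and 2870 CPM, and for FN1 6.26 and 28. The ductal markers summed to 194 to 229 CPM in control vehicle libraries and 740 to 825 in E5 vehicle libraries. Nearly all of this sum was KRT8 and KRT18, with vehicle means of 31.8 and 171 CPM in control and 240 and 530 in E5 cells. EPCAM stayed at or below 1.2 CPM in each group mean and was lower in E5. Its means were 0.599 against 0.291 CPM under vehicle and 1.2 against 0.445 under FOLFIRINOX. Of 4 leukocyte markers only PTPRC reached 1 CPM, and their sum was 48.7 to 54.9 CPM in control libraries with vehicle and 9.62 to 13.5 with drug, but 0.134 to 0.377 and 0.310 to 0.644 CPM in E5 libraries. CD3E was at 0 in each group. Fibroblast markers summed to 3.23 to 4.58 CPM in control and 8.84 to 16.9 in E5 libraries. Of these 5 markers only 1 reached 1 CPM, COL1A1, with vehicle means of 3.84 CPM in control and 15.5 in E5 cells. PDGFRB went the other way, from 0.403 to 0.139 CPM under vehicle and 0.679 to 0.269 under FOLFIRINOX. Endothelial markers summed to 0.667 to 1.48 CPM in control vehicle and 6.7 to 7.15 in E5 vehicle libraries. With FOLFIRINOX they summed to 0.9 to 1.34 and 2.0 to 2.79 CPM. Among them CDH5 had vehicle means of 0.153 CPM in control and 5.55 in E5 cells. PRSS1, CPA1 and INS were at 0. The part of these differences in the 10q values was not tested.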

How the data were processed

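RNA of 4 GEO samples was sequenced, and the tables hold 3 numbered columns for each, 12 in all, with 0 sample columns that could not be mapped by name. The deposited gene counts are raw read counts per gene, and STAR 2.5.1b and build GRCh38 are named per the submitters' processing notes. The tables are named as stranded; other settings of the counting were not stated. The authors also deposited FPKM values, scaled to gene length and depth. A deposited regularised log table was not used. Reads that matched several places (10.79 to 12.838%), no feature (6.631 to 8.523%) or several features (2.863 to 3.205%) stayed outside the library sizes.

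The counts were fitted with edgeR 4.0.16 in R 4.3.3, by group means over all 12 libraries, with TMM scaling, filterByExpr (15636 genes kept) and the quasi-likelihood F test. P-values were adjusted by Benjamini-Hochberg over all genes and called at 0.05, and ± on a log2 difference is its standard error. The biological coefficient of variation was 7.37%. Library medians used log2(CPM + 0.5). The procedure was tested on simulated data. Alternatives were RLE or total count scaling, TMM without the stretch, no filter, DESeq2 1.42.0, limma 3.58.1 on log2(FPKM + 1) and log2(FPKM + 0.1), other CPM cutoffs, window widths, a replicate block and leaving out each library.

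The 341 genes, the functional lists, the complexes and the chromosome 16 stretch were chosen with earlier results of these data known. Genes were named by rule: the 8 lowest and 8 highest by the mean of both E5 against control values at 5 CPM or more, the 5 nearest the border on each side, genes at the split, the 6 largest drug changes each way at 5 CPM or more, the 6 most abundant by FPKM, and the 4 most highly counted of each list. Genes outside it were chosen after their values were seen, among them ADO, MGMT, VPS35 and COX15. Results on some single genes are not reported here.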

Additional observations from a re-analysis of the deposited data

Results flagged for a closer look

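For 12 genes of 10q the response to FOLFIRINOX differed between E5 and control cells by edgeR's test of the difference itself, adjusted over all genes, and these were the largest such differences in each direction at a mean of 5 CPM or more before TMM scaling. Values are the log2 response of E5 minus that of control cells. They are built from the E5 against control comparisons that picked the stretch, so they are not independent of that choice. The response was higher in E5 for ANK3 (1.53), MAT1A (1.12), LHPP, a phosphatase (1.11), INSYN2A (1.11), ZMIZ1 (1.09) and GOLGA7B (1.06). It was lower in E5 for COL17A1 (-2.67), ACSL5 (-2.63), PAPSS2 (-1.80), EGR2 (-1.27), FRAT2, which binds GSK3 (-0.90), and ZNF488 (-0.82). ACSL5 went in opposite directions, up in control cells and down in E5 cells. EGR2 (0.111 to 1.11 CPM in control libraries) and ACSL5 (0.515 to 2.68 CPM there) reached that level through E5 cells, so their differences rest on few control reads. The calls of 9 of the 12 genes were kept in every alternative run. EGR2 lost its call in 12 alternatives, the replicate block among them, INSYN2A on log2(FPKM + 1) and ZNF488 without the second control FOLFIRINOX library.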

How the results depend on the processing

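The median of the 341 genes was below 0 in every alternative run. For vehicle it was -0.447, and -0.387 on log2(FPKM + 1). For FOLFIRINOX it was -0.365, and -0.444 with total counts, -0.440 on log2(FPKM + 1) and -0.467 on log2(FPKM + 0.1), where the median of all genes moved to -0.09, -0.10 and -0.13. Leaving out each library gave -0.457 to -0.439 and -0.371 to -0.344. Genes lowered by the drug in control cells went from 138 to 83 on log2(FPKM + 1), and positive differences of response from 70 to 25. The median of all genes for the control response moved to 0.14 and 0.19 on the FPKM scales. Partner subunits lower under FOLFIRINOX went from 21 to 32 with total counts and to 13 without the third control FOLFIRINOX library, within a range of 13 to 20 over left-out libraries. The cause of these changes was not tested. Of the named drug responses none reversed. EGR2 lost its call in control cells on log2(FPKM + 1) (0.32) and its difference of response in 12 alternatives, from -1.31 to -0.08, so that call is weak. INSYN2A lost its difference on log2(FPKM + 1) (0.31) and ZNF488 without the second control FOLFIRINOX library (-0.65).

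Deviations of same-numbered libraries from their group means correlated at -0.188 to 0.148. Differently numbered libraries were not compared, so these values do not settle whether the column numbers pair the libraries. With the replicate block, 103 genes rose and 136 fell in control cells, 96 and 99 in E5 cells, and 60 and 37 differed in response; partners gave 13 higher and 18 lower under vehicle and 19 and 18 under FOLFIRINOX. EGR2 (-1.27) lost its difference of response there.

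Whether the 3 columns are separate cultures is not given, and DNA copies were not measured. Genes near 1 CPM have few reads in the smallest libraries, so their values are the least precise.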

Other observations

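Noncoding genes and pseudogenes of the same stretch were not used by the rule, though they come from the same comparisons and libraries. Of 97 that were tested, 70 were below 0 under vehicle and 74 under FOLFIRINOX, with medians of -0.42 and -0.58. At 1 CPM or more, 48 had medians of -0.44 and -0.55, beside -0.01 and -0.08 for 1694 such genes outside the stretch. ENTPD1-AS1 was at -0.43 and -0.42, LNCAROD at -0.81 and -0.22, OLMALINC at -0.28 and -0.32 and PRKG1-AS1 at -1.09 and -1.67. The antisense genes among them overlap coding genes, and their values rest on the strand setting of the deposited counts.

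The 14 genes left out by name had medians of 0.07 and -0.12, with 7 of 14 below 0 under either treatment. Among them the interferon-induced IFIT3 was at 2.94 and 1.40, IFIT2 at 2.45 and 2.0 and IFIT1 at 2.04 and 1.24. The cell cycle kinase CDK1 was at -0.78 and -0.61, the spindle motor KIF11 at -0.84 and -0.47 and MKI67 at -0.40 and -0.48.

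PRKG1, a cGMP-dependent kinase, gave 6.01, 6.02 and 4.23 CPM in control vehicle, 4.24, 4.07 and 6.08 in control FOLFIRINOX, 0.670, 0.691 and 0.596 in E5 vehicle and 4.60, 5.91 and 7.47 in E5 FOLFIRINOX. Its E5 vehicle libraries stood apart from the other 3 groups, which overlapped.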
